A study of Mus musculus with 6 samples.

Results

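The Kruppel-like factors described here are 10 genes, Klf2, Klf3, Klf4, Klf5, Klf6, Klf7, Klf9, Klf10, Klf13 and Klf15, out of 19730 rows of a gene expression table. They were taken by gene symbol, and each symbol had 1 row. RNA-Seq was run on mesangial cells in primary culture from the mouse, the contractile cells that hold the capillary loops of the kidney glomerulus together. The comparison asks how the cells respond to transforming growth factor beta 1 (TGF-β1), a secreted protein that drives scarring. The 3 TGF-β1 libraries came from cells given TGF-β1 at 10 ng/ml for 72 h and the 3 Control libraries from cells labelled as controls. Both groups were used at passage 3 to 6 and shared a medium with 25.5 mM glucose and 20% foetal bovine serum, so the Control cells were also in high glucose. Strain, sex and age of the donor mice are not in the labels, which call the libraries triplicates and do not say whether these were separate cultures. The p-values below therefore measure the spread between these libraries, which may be technical.

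Kruppel-like factors are transcription factors with zinc fingers of the C2H2 type at the carboxyl end, related to those of the Sp family. They bind GC-rich sites, typically CACCC elements and GC boxes. The part of the protein ahead of the fingers differs between members and determines whether a factor activates or represses. Klf2, Klf4, Klf5, Klf6 and Klf7 can recruit acetyltransferases and act mostly as activators, though Klf4 also represses. Klf3 recruits the corepressor CtBP, and Klf9, Klf10 and Klf13 recruit Sin3A with histone deacetylases. Klf10 is also called TIEG1, for TGF-β inducible early gene.

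Levels are given as FPKM, the fragments of a transcript per kilobase of its length and per M (mega) of mapped fragments. Depth, recovered from the steps of the lowest values, was 10.13 to 11.09 M fragments per library. A change is the TGF-β1 mean minus the Control mean of log2(FPKM + 1), a measure that is too small for genes of low level. Rows averaging 1 FPKM or more over the 6 libraries were tested with limma, and a gene was called changed at a Benjamini-Hochberg adjusted p under 0.05 over all 11898 tested rows. Ctgf, a matrix-associated protein gene that responds to TGF-β, had a mean of 48.2 FPKM in Control and 1154 FPKM in TGF-β1. Of 10 mesangial markers, 5 had a mean of at least 1 FPKM over the 6 libraries, among them Acta2, Tagln and Pdgfrb. Itga8, Thy1, Des, Pdgfra and Cspg4 were below 1, though Cspg4 had 0.0735 FPKM in Control and 1.21 FPKM in TGF-β1. The 7 endothelial and the 7 tubule markers in the table all averaged below 1 over the 6 libraries. Of the tubule markers, Krt18 had 0.279 and 1.57 FPKM in Control and TGF-β1, Cubn 0.636 and 1.28, and Lrp2 1.43 and 0.230. The endothelial genes Erg, Kdr and Cdh5 were listed at 0 in all Control libraries. The summed podocyte markers were 27.8 to 32.2 FPKM in Control and 14.99 to 15.58 FPKM in TGF-β1. The summed macrophage markers were 87.0 to 113.8 and 9.03 to 11.9 FPKM, most of it Cd14. Csf1r of the same list fell from 6.27 ± 0.979 to 0.411 ± 0.156 FPKM (limma adjusted p = 8.6e-05). Cd68 had 2.79 and 2.22 FPKM and was not called, and Ptprc was at 0 in all Control libraries. The replicate 2 libraries of the 2 groups deviated from their group means in a like way, with a correlation of 0.232 over the 11898 rows, and the members are given without them at the end. The part of these markers in the results below was not tested. In bulk RNA, fewer cells of a type and less RNA per cell cannot be told apart.

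Promoter windows of RefSeq transcripts (mouse build GRCm38), running from 250 bases before to 50 bases after the start, were at hand for Klf2, Klf3, Klf4, Klf6, Klf7, Klf9, Klf13 and Klf15. A CACCC element, the core that Kruppel-like factors themselves bind, was searched as CACCC or GGGTG and occurred in 6 of these 8 windows, against 57.5% of 32851 promoters of the same length. A GC box, searched as GGGCGG or CCGCCC, occurred in 7 of 8, against 35.7%. Both searches covered both strands, and a match to one can share bases with a match to the other. CACGTG was found in 3 windows (7.15% of all promoters) and the SMAD box CAGAC or GTCTG in 2 (49.6%). Neither the AP-1 site TGACTCA (5.20%) nor the cyclic AMP element TGACGTCA (1.79%) was matched in any of the 8 windows. The windows are GC-rich: 58.3% GC in Klf7 to 76.7% in Klf3, against a median of 52.7% over all promoters. A match describes the letters and is not a measured binding site.

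The sequences upstream of the start are shown for changed members, Klf2, Klf4, Klf6 and Klf7, so that the site content of those that rose can be read beside that of those that fell. They were located on the mm9 genome and stop at the first annotated exon. Capitals mark CACCC or GGGTG and GGGCGG or CCGCCC, and each is written 5′ to 3′ on the strand of the gene.
Klf2: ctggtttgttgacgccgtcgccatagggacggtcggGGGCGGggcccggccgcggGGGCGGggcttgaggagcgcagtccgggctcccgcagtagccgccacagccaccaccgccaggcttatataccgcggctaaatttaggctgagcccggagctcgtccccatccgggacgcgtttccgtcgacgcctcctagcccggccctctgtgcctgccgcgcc
Klf4: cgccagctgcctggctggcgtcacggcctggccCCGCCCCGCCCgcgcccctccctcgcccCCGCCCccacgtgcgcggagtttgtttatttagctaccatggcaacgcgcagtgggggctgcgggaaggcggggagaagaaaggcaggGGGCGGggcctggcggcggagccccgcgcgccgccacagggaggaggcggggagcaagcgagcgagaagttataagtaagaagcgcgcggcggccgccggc
Klf6: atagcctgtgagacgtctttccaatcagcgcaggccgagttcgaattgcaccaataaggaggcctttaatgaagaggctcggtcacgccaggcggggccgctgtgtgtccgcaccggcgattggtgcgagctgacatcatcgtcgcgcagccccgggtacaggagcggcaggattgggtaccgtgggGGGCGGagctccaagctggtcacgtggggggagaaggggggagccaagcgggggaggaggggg
Klf7: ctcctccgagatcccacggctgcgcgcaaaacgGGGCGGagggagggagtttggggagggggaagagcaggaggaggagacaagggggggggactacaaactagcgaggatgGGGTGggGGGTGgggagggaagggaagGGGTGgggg
The Klf2 stretch is chr8:74842711-74842931 on the plus strand and the Klf6 stretch is chr13:5860485-5860734 on the plus strand. The Klf4 stretch is chr4:55545348-55545597 and the Klf7 stretch is chr1:64168066-64168213, both on the minus strand. The Klf7 stretch lies between 2 annotated first exons of Klf7, since another annotated transcript starts further upstream. The printed stretches held 2 GC boxes in Klf2, 4 in Klf4 and 1 each in Klf6 and Klf7, and only that of Klf7 among these 4 held CACCC elements, 3 of them. The full RefSeq window of Klf2 held 1 CACCC element outside the printed stretch, and those of Klf4 and Klf6 held none. GC boxes thus occurred upstream of Klf2 and Klf6, which rose, and of Klf4 and Klf7, which fell. No window was at hand for Klf10, which also rose.

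After TGF-β1, transcripts of Klf10, Klf2 and Klf6 rose and those of Klf4 and Klf7 fell. Klf3, Klf5, Klf9 and Klf13 did not pass the test, and Klf15 was too low to be tested. Thus 5 of the 9 tested members changed, 3 upward and 2 downward. Over all tested rows 48.1% changed, 24.5% upward and 23.6% downward, so the members' count is near the background of this treatment. The groups did not overlap in 6 of the 9 members and in 59.4% of all tested rows. The median change was 0.21 over the 9 members and -0.02 over all tested rows. The lowest value of any tested member was 2.496 FPKM, that of Klf5 in Control replicate 2, so none passed the filter only through the group where it was high.

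**Figure D1:**
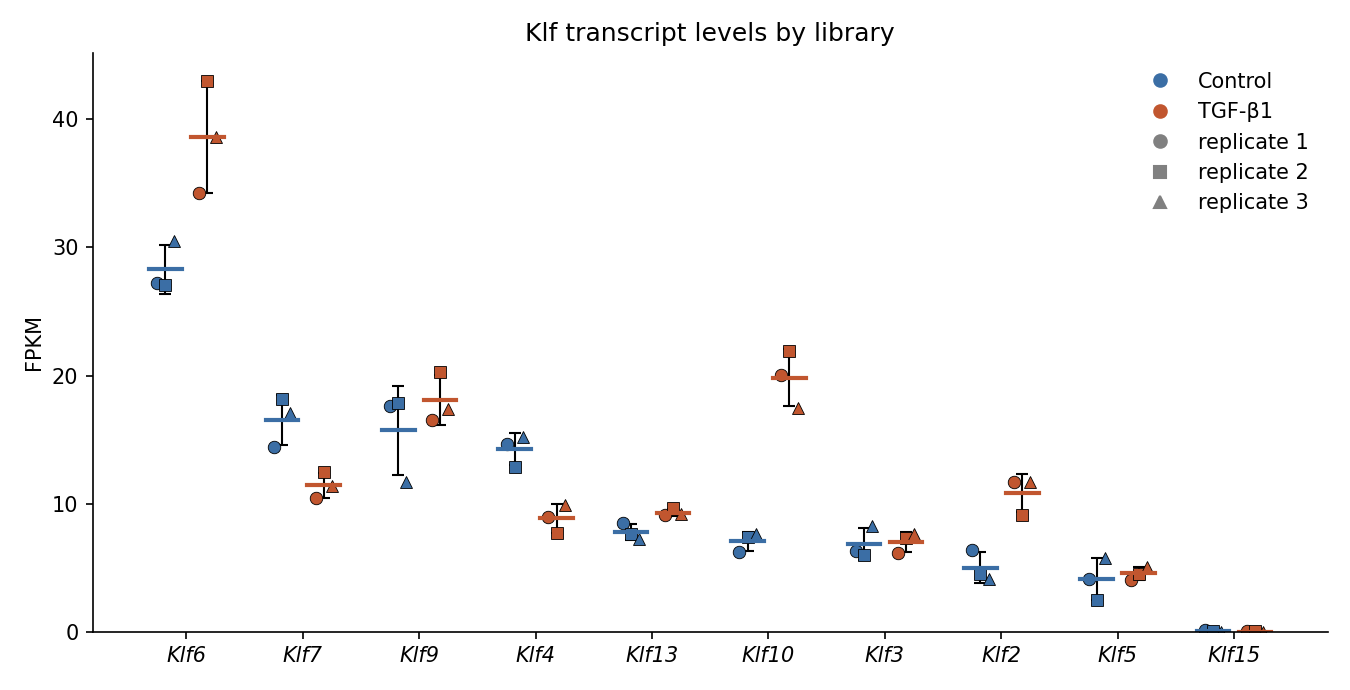
FPKM of the 10 Klf genes in each library, ordered by Control mean, with Control in blue and TGF-β1 in orange. Points are libraries, marker shapes are replicate numbers, horizontal lines are means and error bars are SD (n = 3). Klf6 was the highest in every library, the Klf10 and Klf2 points of TGF-β1 lie above those of Control, the Klf4 and Klf7 points lie below them, and Klf15 lies at the axis.

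The largest change was that of Klf10, which represses transcription and is known as an early target of TGF-β. Its levels were 6.24, 7.39 and 7.64 FPKM in Control replicates 1 to 3 and 20.1, 21.95 and 17.5 FPKM in TGF-β1 replicates 1 to 3. Every TGF-β1 library was more than 2-fold above every Control library. The means were 7.09 ± 0.743 and 19.8 ± 2.24 FPKM (SD, n = 3), a ratio of 2.80. The change was 1.36 (SE 0.12, 95% interval 1.08 to 1.65), with a limma adjusted p of 2.56e-04. Its size exceeded that of 91.6% of tested rows. Among tested rows, Klf10 moved from the 34.8th percentile of level in Control to the 63.6th in TGF-β1. The gene lies at chr15:38221219-38230464 on the minus strand (mm9), and its row names a transcript of 2143 nt whereas the longest of its 4 annotated transcripts is 3045 nt.

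Klf2, which in endothelium is induced by flow through the MEK5, ERK5 and MEF2 cascade and favours quiescence, was the other member to rise by about 1 on the log2 scale. Control replicates 1 to 3 had 6.41, 4.56 and 4.11 FPKM and TGF-β1 replicates 1 to 3 had 11.7, 9.12 and 11.7 FPKM. The groups did not overlap, and Control replicate 1 was the highest of its group. The means were 5.03 ± 1.22 and 10.8 ± 1.49 FPKM, a ratio of 2.16. The change was 0.98 (SE 0.17, 95% interval 0.57 to 1.40; limma adjusted p = 0.00444). The gene, at chr8:74842932-74845555 on the plus strand, has 1 annotated transcript of 1847 nt, and its values rest on about 73.0 to 212 fragments per library. Endothelial markers, whose cells are known for high Klf2, summed to 0.743 to 0.969 FPKM in Control and 0.472 to 1.14 FPKM in TGF-β1. The part of such cells in the Klf2 difference was not tested.

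Klf4, a close relative of Klf2 and one of the reprogramming factors, represses contractile genes in smooth muscle. Its levels were 14.7, 12.8 and 15.2 FPKM in Control and 8.99, 7.69 and 9.93 FPKM in TGF-β1. All TGF-β1 libraries lay below all Control libraries, and replicate 2 was the lowest of each group. The means were 14.2 ± 1.24 and 8.87 ± 1.12 FPKM, 1.61-fold lower in TGF-β1. Expression fell by 0.63 (SE 0.12, 95% interval -0.91 to -0.35; limma adjusted p = 0.00556). The gene is at chr4:55540013-55545347 on the minus strand. The summed podocyte markers, from a glomerular cell type that also expresses Klf4, were lower in TGF-β1 as well, 14.99 to 15.58 against 27.8 to 32.2 FPKM, and their part in the Klf4 difference was not tested.

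Klf6 and Klf7 form another closely related pair, and they moved in opposite directions. Klf6, an early response gene known to activate TGF-β1 and its receptors, was the most abundant member. It had 27.2, 27.1 and 30.5 FPKM in Control and 34.2, 43.0 and 38.6 FPKM in TGF-β1. The groups did not overlap, and Control replicate 3 came closest to the TGF-β1 range. The means were 28.3 ± 1.93 and 38.6 ± 4.38 FPKM, a ratio of 1.37, and the change was 0.43 (SE 0.11, 95% interval 0.18 to 0.69; limma adjusted p = 0.0166). The Klf6 call was lost without Control replicate 1, Control replicate 2 or TGF-β1 replicate 3 (adjusted p = 0.0526, 0.0547 and 0.0522) and under 2 scalings to a common sum, so it is the least stable of the 5. The gene is at chr13:5860735-5869639 on the plus strand.

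Klf7, a broadly expressed activator known from axon growth and from fat cell precursors, had 14.4, 18.2 and 17.1 FPKM in Control and 10.5, 12.4 and 11.4 FPKM in TGF-β1. Every TGF-β1 library lay below every Control library. The means were 16.6 ± 1.94 and 11.4 ± 0.996 FPKM, 1.45-fold lower in TGF-β1. Expression fell by 0.50 (SE 0.11, 95% interval -0.77 to -0.22; limma adjusted p = 0.0128). The gene, at chr1:64076021-64168856 on the minus strand, overlaps Gm17427 and Gm13748 on the other strand, and strand use in the FPKM estimate is not given in the sources used here.

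**Figure D2:**
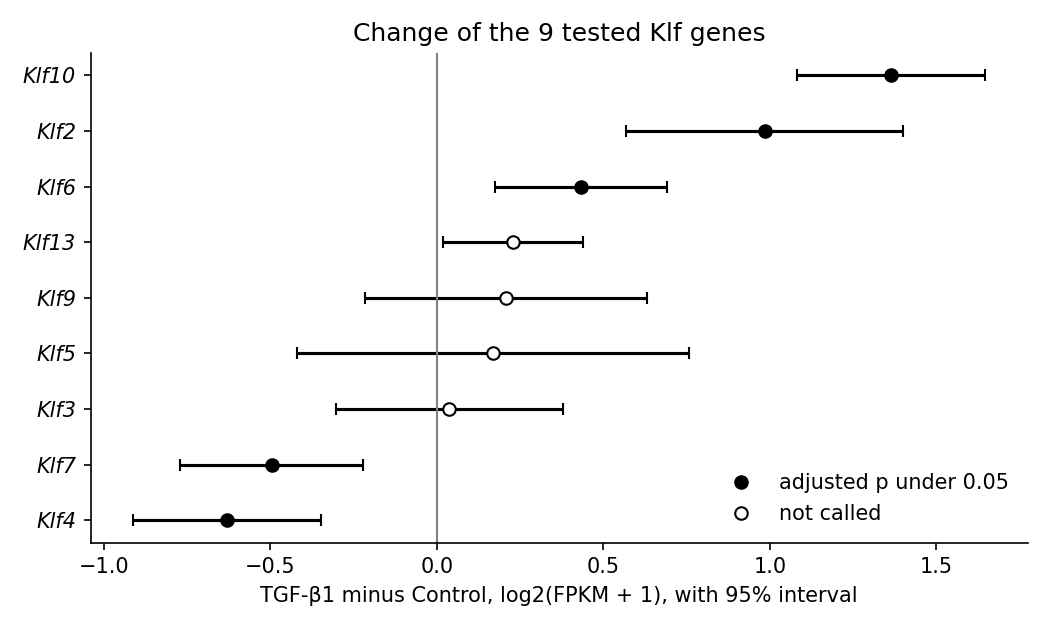
Change of each of the 9 tested Klf genes, TGF-β1 minus Control on the log2(FPKM + 1) scale, with bars giving 95% intervals (3 libraries a group). Filled circles have an adjusted p under 0.05. Klf10 at 1.36 and Klf2 at 0.98 lie farthest to the right, Klf4 at -0.63 lies farthest to the left, and the interval of Klf13 is the only one among the open circles that excludes 0.

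The remaining activator, Klf5, promotes proliferation in smooth muscle and epithelium. Its levels were 4.09, 2.50 and 5.79 FPKM in Control and 4.07, 4.55 and 5.10 FPKM in TGF-β1. The TGF-β1 values lay inside the Control range. Klf5 was the most variable tested member in Control, with a coefficient of variation of 39.9% against 11.2% in TGF-β1, and its lowest library rests on about 42.0 fragments. The means were 4.13 ± 1.65 and 4.57 ± 0.513 FPKM, and the change of 0.17 had a 95% interval of -0.42 to 0.76 (limma adjusted p = 0.596). An increase of the size seen in Klf6 is therefore inside the interval. The gene is at chr14:99697910-99712624 on the plus strand.

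Klf3, the CtBP-binding repressor, had 6.28, 5.99 and 8.27 FPKM in Control and 6.13, 7.33 and 7.60 FPKM in TGF-β1. The TGF-β1 values again fell inside the Control range. The means were 6.85 ± 1.24 and 7.02 ± 0.784 FPKM, and the change was 0.04 (95% interval -0.30 to 0.38; limma adjusted p = 0.846). Its sign depended on the scaling and on the libraries kept, so no direction is given for Klf3. The gene is at chr5:65194628-65221368 on the plus strand.

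Klf9, Klf13 and Klf10 share the Sin3A-binding type of repression domain, but Klf10 alone among them was called. Klf9, which responds to glucocorticoids and thyroid hormone, had 17.6, 17.8 and 11.7 FPKM in Control and 16.5, 20.3 and 17.4 FPKM in TGF-β1. Control replicate 3 was the lowest of the 6 libraries, and the groups overlapped. The means were 15.7 ± 3.46 and 18.1 ± 1.96 FPKM, and the change was 0.21 (95% interval -0.22 to 0.63; limma adjusted p = 0.366). The gene, at chr19:23215716-23241401 on the plus strand, contains Mir1192 on the same strand.

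Klf13, known from T cells as an activator of the chemokine gene Ccl5, had 8.52, 7.65 and 7.27 FPKM in Control and 9.09, 9.66 and 9.19 FPKM in TGF-β1. The groups did not overlap, but the gap between them was small. The means were 7.81 ± 0.639 and 9.31 ± 0.302 FPKM. The change of 0.23 had a 95% interval of 0.018 to 0.44 and an unadjusted limma p of 0.0376, which became 0.0721 after adjustment. With quantile normalization the adjusted p was 0.0445, the only alternative in which Klf13 was called. The gene is at chr7:71031237-71083801 on the minus strand.

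Klf15, which responds to glucocorticoids and directs amino acid catabolism in muscle and liver, was hardly detected. Its values were 0.125, 0.0833 and 0 FPKM in Control and 0.0419, 0.0454 and 0 FPKM in TGF-β1. By the recovered depth these stand for 3, 2 and 0 fragments in Control and 1, 1 and 0 fragments in TGF-β1. No library exceeded 3 fragments, which correspond to 0.124 to 0.136 FPKM, so a difference was not detectable at this depth and no fold is given. The gene is at chr6:90412570-90425232 on the plus strand.

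Because FPKM is scaled by transcript length, levels can also be set side by side between members. In Control, Klf6 was highest, followed by Klf7, Klf9 and Klf4, whose neighbours in the order overlapped in range. Then came Klf13, Klf10, Klf3, Klf2 and Klf5, again with overlapping neighbours, and Klf15 was last. With TGF-β1, Klf6 was still first, Klf10 and Klf9 followed with overlapping ranges, and Klf7, Klf2, Klf13 and Klf4 formed an overlapping run below them. Klf10 thus moved from the 6th to the 2nd place, and Klf4 from the 4th to the 7th. Klf3, Klf5 and Klf15 were last, each apart from its neighbours. Klf9 held the 3rd place in both groups.

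The summed FPKM of the 10 members was 105.6, 104.1 and 107.6 in Control and 121.4, 136.1 and 128.4 in TGF-β1, with means of 106 ± 1.73 and 129 ± 7.36. Klf6 made up 26.7% ± 1.42 of the sum in Control and 30.0% ± 1.70 in TGF-β1 (SD, n = 3). The share of Klf10 was 6.70% ± 0.685 in Control and 15.4% ± 1.57 in TGF-β1, and that of Klf2 was 4.75% ± 1.17 and 8.48% ± 1.57. Klf4 went from 13.5% ± 0.982 to 6.93% ± 1.12 and Klf7 from 15.7% ± 1.93 to 8.88% ± 0.266. The shares of Klf6, Klf3, Klf5, Klf9 and Klf13 overlapped between the groups. The sum and the shares are descriptions with no test, since a member's share also falls when another member rises.

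**Figure D3:**
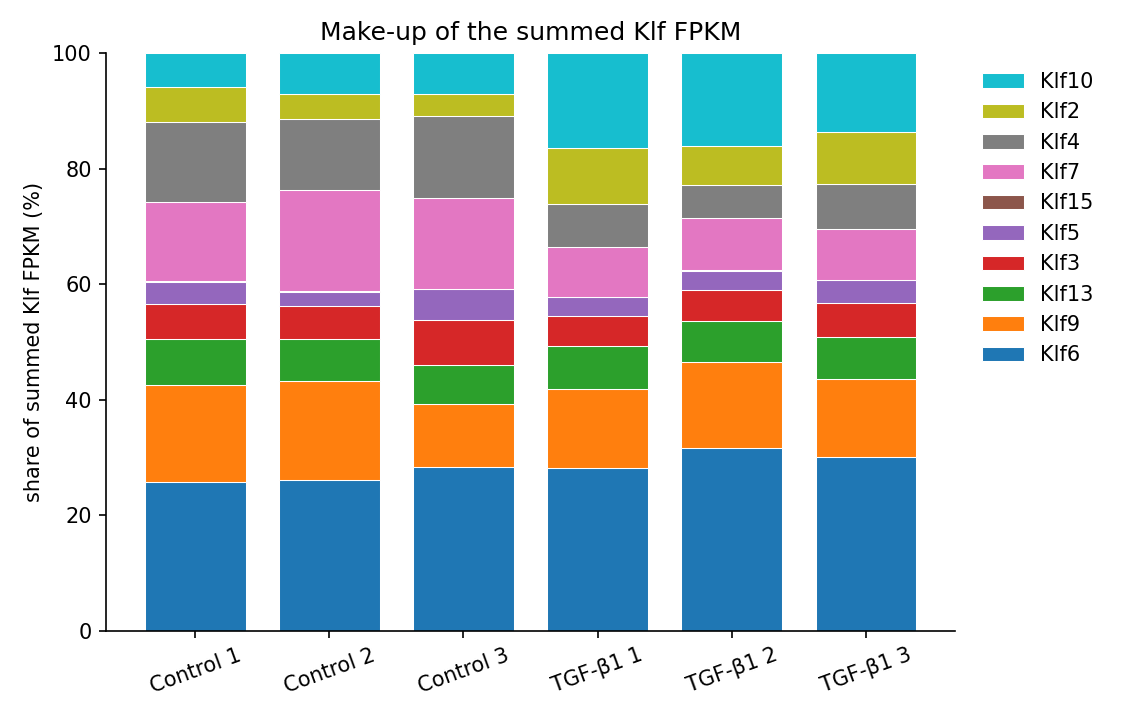
Share of each member in the summed FPKM of the 10 Klf genes, in percent, in each of the 6 libraries. The bands of Klf10 and Klf2 at the top are wider and those of Klf4 and Klf7 narrower in the 3 TGF-β1 libraries, while Klf15 is too low to be seen.

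Ratios between related genes were formed within each library, which removes any scaling of the library as a whole. These 3 pairs were chosen after their values were seen. The Klf4 to Klf2 ratio was 2.29, 2.82 and 3.70 in Control and 0.767, 0.843 and 0.852 in TGF-β1. Klf4 was thus the higher of the pair in each Control library and Klf2 in each TGF-β1 library. The Klf7 to Klf6 ratio was 0.529, 0.672 and 0.559 in Control and 0.305, 0.289 and 0.295 in TGF-β1. Klf11, or TIEG2, is the closest relative of Klf10, and the Klf10 to Klf11 ratio was 1.48, 2.06 and 2.18 in Control and 4.63, 6.29 and 4.23 in TGF-β1. None of the 3 ratios overlapped between groups, and each had a two-sided exact permutation p of 0.1 (0.1 after adjustment over the 3), the smallest that 3 against 3 libraries allow. For all 3 pairs this outcome was fixed in advance by the values of the single genes. In Klf4 to Klf2 and Klf7 to Klf6 a member that fell without overlap is divided by a member that rose without overlap. In Klf10 to Klf11, Klf10 rose without overlap and Klf11 stayed at 3.49 to 4.33 FPKM, too narrow a range to make the ratios overlap. These ratios therefore add no support beyond the results of the single genes.

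**Figure D4:**
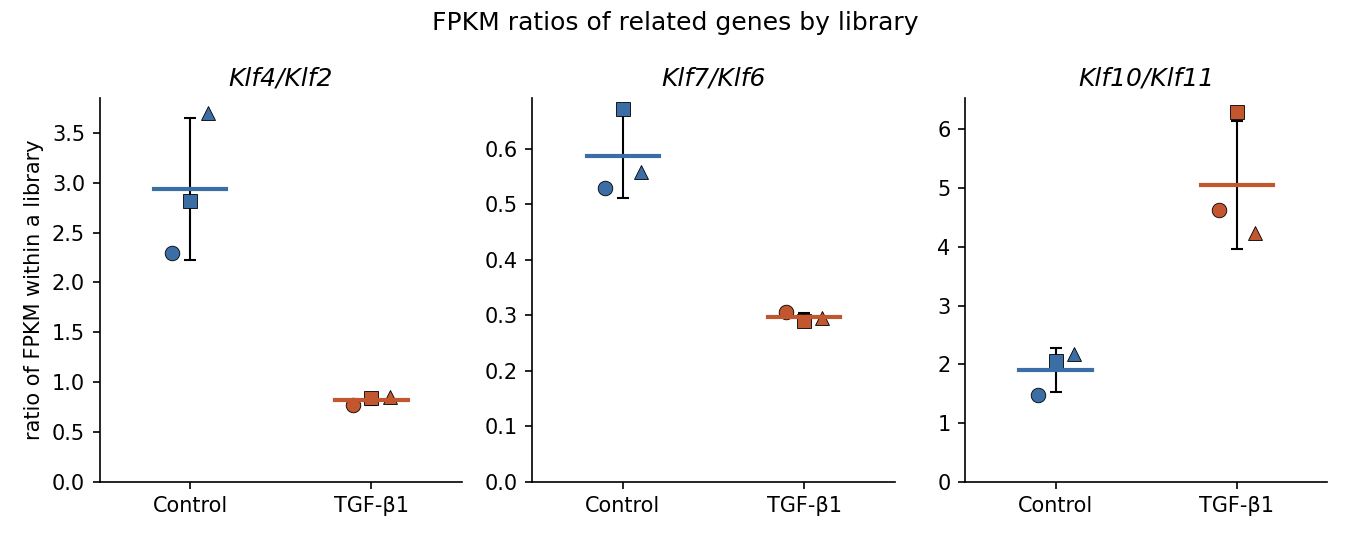
FPKM ratios of 3 pairs of related genes within each library, in Control (blue) and TGF-β1 (orange), on linear axes from 0. Points are libraries with shapes for replicate numbers, lines are means and bars are SD (n = 3). Klf4/Klf2 fell from a mean of 2.94 to 0.820, Klf7/Klf6 from 0.587 to 0.296, and Klf10/Klf11 rose from 1.90 to 5.05, with no overlap between groups.

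Among other Kruppel-like and Sp genes, 13 of 17 listed were in the table and 6 were tested, of which 1 rose and 1 fell, with a median change of 0.10, where 24.5% of all tested rows rose and 23.6% fell. Sp3, a GC-box factor that activates or represses by context, had 15.9, 13.3 and 12.3 FPKM in Control and 19.5, 20.4 and 19.7 FPKM in TGF-β1, a change of 0.50 (limma adjusted p = 0.0094). Sp9 had a mean of 4.90 ± 1.29 FPKM in Control and 2.42 ± 0.727 FPKM in TGF-β1. It fell by 0.78 (limma adjusted p = 0.0246), but its locus overlaps Cir1 and the call was lost in 6 of 21 alternatives. Klf11 had 3.77 ± 0.394 and 3.99 ± 0.440 FPKM (adjusted p = 0.682), and Klf16 had 9.22 ± 0.744 and 11.7 ± 1.27 FPKM (adjusted p = 0.0566). Sp2 was at 7.43 and 8.29 FPKM (adjusted p = 0.317). The Sp1 row names a transcript of only 222 nt and stood at 14.5 and 12.5 FPKM (adjusted p = 0.101).

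Of 8 tested cofactors through which these proteins act, 1 rose and 1 fell, with a median of -0.11, where 48.1% of all tested rows changed. Crebbp encodes the acetyltransferase CBP and had 7.36, 7.83 and 7.46 FPKM in Control and 4.07, 4.32 and 4.53 FPKM in TGF-β1. It fell by 0.69 with no overlap (limma adjusted p = 0.0010). The deacetylase gene Hdac2 had means of 112 and 146 FPKM (change 0.39, adjusted p = 0.0460), a call that was lost in 14 of 21 alternatives. The corepressor genes Sin3a and Ctbp1, which serve the repressing members, were among the 6 that did not pass, and these 2 are named after their values were seen. The Sin3a row names a transcript of only 364 nt.

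A further list held genes known to act upstream of members and genes that glucocorticoids induce. Of its 10 tested genes, 3 rose and 4 fell, with a median of -0.20, beside 48.1% of all tested rows that changed. Fkbp5, a glucocorticoid-induced cochaperone of the glucocorticoid receptor, had a mean of 1.12 ± 0.206 FPKM in Control and 5.75 ± 0.649 FPKM in TGF-β1, a change of 1.67 (limma adjusted p = 1.8e-04). Tsc22d3 and Per1, which glucocorticoids also induce, fell by 0.57 (adjusted p = 0.0050) and by 0.37 (adjusted p = 0.0359, lost in 10 of 20 alternatives), and are named after their values were seen. Nr3c1, the glucocorticoid receptor itself, went from 21.1 ± 2.41 to 11.5 ± 0.734 FPKM and fell by 0.82 (adjusted p = 0.0013). Mef2d, a target of ERK5 signalling, had 10.9 ± 2.28 and 16.4 ± 1.68 FPKM (change 0.57, adjusted p = 0.0277), a call lost in 7 of 21 alternatives. Thra, a thyroid hormone receptor, had 30.6 ± 2.64 and 8.58 ± 1.46 FPKM and fell by 1.73 (adjusted p = 1.9e-04), but its row names a transcript of 378 nt in a gene that overlaps Nr1d1 on the other strand. Klf9, known to be induced by both receptors, was not called in the same libraries.

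Of 5 tested genes for ubiquitin ligases that target Klf proteins, 2 rose and none fell, with a median of 0.24, again beside 48.1% changed over all rows. Fbxw7, which marks Klf2 and Klf5 for degradation, had a mean of 9.64 ± 1.20 FPKM in Control and 19.4 ± 0.419 FPKM in TGF-β1 (change 0.95, limma adjusted p = 6.6e-04). Smurf1, which also limits Klf2 protein, had means of 11.4 ± 0.890 and 21.7 ± 1.87 FPKM (change 0.87, adjusted p = 7.6e-04). Protein was not measured in these libraries, so only transcript levels of the members and of these ligases are known here.

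Genes known as targets of Klf proteins in other cells were also counted. Of 27 listed, 24 were in the table and 20 were tested, of which 13 rose and 3 fell, with a median change of 1.37. Over all tested rows 24.5% rose and 23.6% fell. Many of them are also direct TGF-β targets or smooth muscle genes, so the list does not separate Klf from TGF-β responses. Ctgf, given above, had a change of 4.63 (limma adjusted p = 9.5e-05). Vcam1, an adhesion molecule gene, had 3.44 ± 0.0101 and 0.679 ± 0.178 FPKM and fell by 1.41 (adjusted p = 2.7e-04). Tgfbr1, the type I TGF-β receptor gene, had 9.62 ± 1.37 and 6.32 ± 0.366 FPKM and fell by 0.53 (adjusted p = 0.0100).

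Some target pairs bear on single members, and these genes were chosen after their values were seen. The contractile genes Acta2, Tagln and Cnn1, which Klf4 is known to repress in smooth muscle, had TGF-β1 to Control ratios of 3.90, 3.43 and 9.48, and all 3 passed the test (limma adjusted p at most 1.2e-04) in the libraries in which Klf4 fell. Myh11, the smooth muscle myosin gene of the same list, was at 0.0427 ± 0.0244 FPKM in Control and 0.0336 ± 0.0364 FPKM in TGF-β1, under the filter. Smad7, an inhibitory SMAD gene known to be repressed by Klf10, had 11.9 ± 1.84 FPKM in Control and 39.3 ± 2.25 FPKM in TGF-β1, a rise beside that of Klf10. Tgfb1 itself, a known target of Klf6, had 29.4 ± 3.91 and 62.8 ± 6.26 FPKM (change 1.07, adjusted p = 8.8e-04). Tgfbr1, the receptor gene that Klf6 is also known to activate, fell by 0.53 in the same libraries, as given above. Nos3 and Thbd, the endothelial genes that Klf2 activates, stayed below 0.34 FPKM in every library although Klf2 rose.

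As other transcription factor families that respond to stimuli, AP-1 and EGR genes and SMAD and SKI genes were counted in the same fit. Of 8 tested AP-1 and EGR genes, 2 rose and 2 fell, with a median of 0.36. Egr2 (change 0.90) and Atf3 (0.71) rose, while Egr1 and Fos fell by 1.33 and by 1.29. The Egr2 row names a transcript of 773 nt, at which its values rest on about 5.70 to 17.7 fragments per library. Of 9 tested SMAD and SKI genes, 4 rose and 1 fell, with a median of 0.24: Skil, which restrains SMADs, rose by 2.49 and Smad7 by 1.66, and Smad3 fell by 0.40. The counts, 4 of 8 and 5 of 9, lie near the 48.1% of all tested rows, and no difference between the families was tested. Replicate 2 decided some of these calls. Junb had 36.9, 7.88 and 27.4 FPKM in Control and 125.2, 1.23 and 125.3 FPKM in TGF-β1, and it was called only without TGF-β1 replicate 2 and in replicates 1 and 3 alone. Jun was called in replicates 1 and 3 alone and with the replicate number or replicate 2 as a term, and so was Smad6, which was also called without Control replicate 2. These 3 genes are named after their values were seen.

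The calls for Klf2, Klf4, Klf7 and Klf10 held in all 21 alternatives that were run. Over these alternatives the change of Klf10 ranged from 1.18 to 1.47, that of Klf2 from 0.81 to 1.14, that of Klf4 from -0.81 to -0.54 and that of Klf7 from -0.68 to -0.43. Klf7 came closest to the threshold, with an adjusted p of 0.0497 without TGF-β1 replicate 1. Klf6 was called in 15 of 21. When libraries were scaled to a common sum of protein-coding rows, the median of all rows moved from -0.02 to -0.19, and 33.8% of all calls were upward (2014 of 5965) against 50.9% as deposited (2911 of 5721). Relative to the median row, the change of Klf6 was 0.36 to 0.45 over the 6 scalings, that of Klf10 1.37 to 1.38, that of Klf4 -0.62 to -0.61 and that of Klf7 -0.51 to -0.48.

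**Figure D5:**
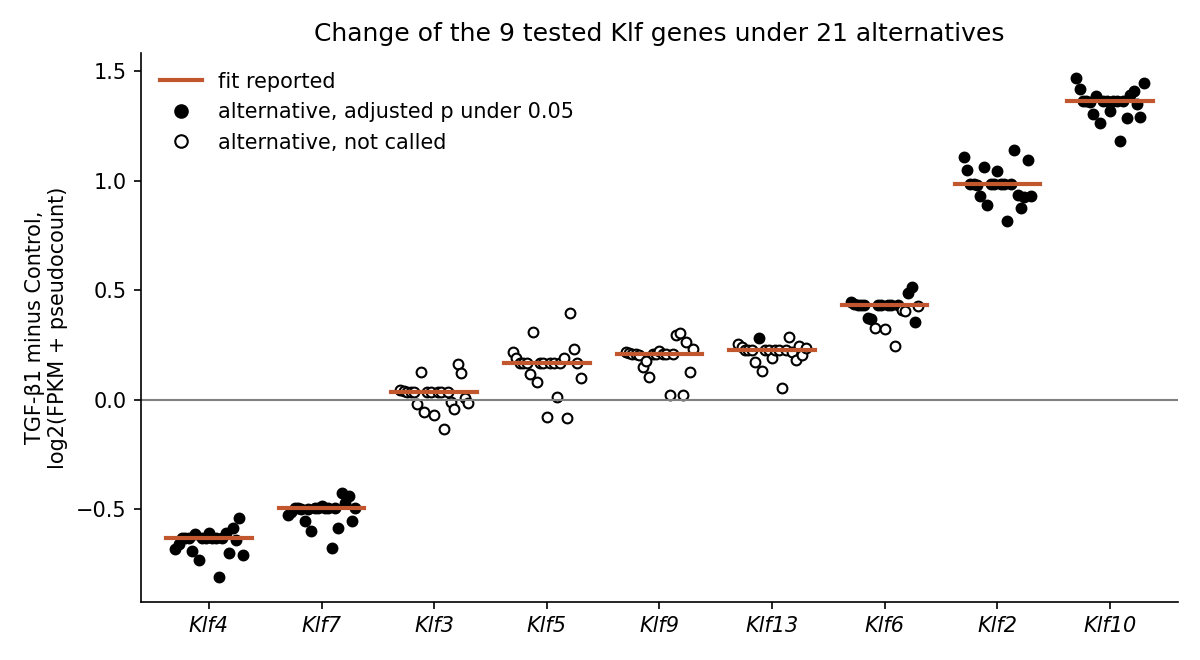
Change of the 9 tested Klf genes, TGF-β1 minus Control on the log2(FPKM + pseudocount) scale, under 21 alternatives. Orange lines give the reported fit, filled points are alternatives with an adjusted p under 0.05 and open points are the others. The points of Klf4, Klf7, Klf2 and Klf10 are all filled and stay on 1 side of 0, those of Klf6 are filled in 15 of 21, and those of Klf3 and Klf5 lie on both sides of 0.

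In the replicate 2 libraries, which stood apart, Klf4 was lowest and Klf7 and Klf9 were highest of each group, while none of the other 6 tested members lay outside the other 2 libraries in the same direction in both groups. Set against the mean of replicates 1 and 3, replicate 2 was lower in both groups for Klf2 (0.866 and 0.780 times) and higher in both for Klf10 (1.06 and 1.17 times). In replicates 1 and 3 alone, Klf2, Klf4, Klf7 and Klf10 were called and Klf6 was not (change 0.33, limma adjusted p = 0.0927).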

How the data were processed

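RNA-Seq was analysed from 3 Control and 3 TGF-β1 libraries of mouse mesangial cells, grouped by the treatment label. The authors discarded reads of low quality, aligned the remaining ones to mm9 with TopHat (TopHat2 2.0.11 in the submitters' processing notes) and estimated FPKM with Cufflinks. The deposited values are FPKM per row; any further scaling between libraries is not given in the sources used here. The authors' own test was a count model (DESeq), which was not repeated on FPKM. Whether a row holds its gene or only the transcript it names is not stated.

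log2(FPKM + 1) of rows averaging 1 FPKM or more was fitted with limma 3.58.1 in R 4.3.3 (lmFit, eBayes with trend), two-sided, without covariates, and adjusted by the Benjamini-Hochberg method over 11898 rows. Summaries used Python 3.11.15 and pandas 2.3.3. The fit was tested on simulated data. In 542 to 607 low genes per library with 1 transcript, 99.5% to 99.8% of values were whole fragments within 0.1 fragment (up to 4 fragments, a fragment length of 200 nt assumed), which gave 10.13 to 11.09 M fragments per library; this precision covers counting error only. Coordinates are 1-based positions from GENCODE M1 (mm9).

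The members, gene lists and alternatives were chosen with earlier results of these data known. All 10 members are named. From each other list the 2 largest increases and decreases among called genes are named, with every tested gene of the Kruppel-like and Sp list; further genes are said to have been chosen after their values were seen. 1 gene that this rule selects is not reported here. Alternatives changed the pseudocount (0.1 or 0.5), the filter (none, or a mean of at least 3), the scaling, the model and the libraries kept.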

Additional observations from a re-analysis of the deposited data

How the results depend on the processing

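With 3 libraries a group, the members' count was 4 to 6 over all alternatives and 4 to 5 when 1 library was left out, against 5 as reported, and all-gene calls were 4350 to 6026. Klf6 lost its call with a common sum of rows under 10000 FPKM (0.33, limma adjusted p = 0.0626), with a common sum of protein-coding rows (0.24, adjusted p = 0.136; chosen after seeing the data), in replicates 1 and 3 alone and without 3 single libraries. Without Control replicate 1, Control replicate 2 or TGF-β1 replicate 3 its change was 0.41, 0.40 and 0.43. The change of Klf3 turned negative with upper-quartile scaling (-0.017), with the first common sum (-0.058), with the second (-0.13) and in replicates 1 and 3 alone (-0.069), and was -0.040 to 0.16 with 1 library left out. That of Klf5 was -0.080 in replicates 1 and 3 alone and -0.082 to 0.40 with 1 library left out. Changes are on the log2 scale, and the cause was not tested.

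Changed other Klf and Sp genes numbered 2 as reported, 4 with no filter on low values, where Klf1 and Klf8 were added, 1 in replicates 1 and 3 alone, and 1 to 4 with 1 library left out. Klf1 rests on about 1.0 to 5.0 fragments per library (limma adjusted p = 0.0494 with no filter). The Klf8 row names a transcript of only 247 nt, and neither call is read further. Changed cofactor genes numbered 2 as reported and 1 with no filter, upper-quartile scaling, quantile normalization, a common sum of rows under 10000 FPKM, replicate 2 as a batch term, replicates 1 and 3 alone or no trend, and 1 to 2 with 1 library left out. It was 3, all lower, with a common sum of protein-coding rows. Counts of upstream or glucocorticoid-induced, ubiquitin ligase, target and all genes stayed within 1.5 times the reported count in every alternative that was run.

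With the replicate number as a block, 5391 genes were called against 5721, the members' count stayed at 5, the other Klf and Sp genes went to 1 and the cofactors to 1. Deviations of same-numbered libraries had correlations of 0.092, 0.232 and 0.085. Other pairs had -0.194 to 0.117, and Control replicate 1 with TGF-β1 replicate 3 was the only positive value among them. The labels do not say that the numbers pair the libraries, so the reported fit has no replicate term, and pairing was not settled. Klf15 is limited by depth, and an FPKM of exactly 0 may come from a failed estimate.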
